A study of Canis lupus familiaris with 39 samples.

Results

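The genes described here encode the subunits of the 5 complexes of oxidative phosphorylation, together with factors that build or regulate those complexes, measured in 10 normal organs of the dog. They were chosen by symbol alone, as every probeset (a set of short probes read as 1 value) with a single gene symbol that begins with NDUFA, NDUFB, NDUFC, NDUFS, NDUFV, SDHA, SDHB, SDHC, SDHD, UQCR or ATP5, or that runs between COX4 and COX8. This gave 74 genes on 146 probesets, of 15115 genes on 42860 probesets in all. Each gene was represented by its probeset with the highest mean over the 39 arrays, and 47 of the 74 genes had more than 1 probeset. By role, 33 genes belong to complex I, 4 to complex II, 7 to complex III, 8 to complex IV and 9 to complex V, and 13 encode assembly or regulatory factors. The same opening letters brought in the assembly factors of complexes I and II (NDUFAF and SDHAF genes), COX7A2L and the ATP synthase inhibitor ATP5IF1.

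RNA was hybridised to Affymetrix Canine Version 2.0 arrays, with 4 arrays each of heart, skeletal muscle, kidney, brain (cerebrum), jejunum, liver, lymph node, spleen and lung and 3 of pancreas, all labelled as normal tissue. Per the study's methods the tissue was pathologically normal and came from 4 dogs, beagles or mixed breed, of both sexes and from pups to adults. Every organ was collected from each dog. The study left out a pancreas sample that stood apart in its principal component analysis and lacked expression of typical pancreatic genes. Age, sex and dog were not given per array in the labels, so the spread within an organ mixes them. Arrays of different organs come from the same animals, a pairing that the main fit does not use. Each organ was compared with the unweighted mean of the other 9 organs, and heart was also compared with skeletal muscle directly.

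Complex I takes electrons from NADH, complex II from succinate, and both pass them through ubiquinone to complex III, which hands them to cytochrome c. Complex IV, cytochrome c oxidase, passes them on to oxygen, and the proton gradient built on the way drives complex V, the ATP synthase. Heart muscle works without rest and is known for a dense population of mitochondria, and kidney tubules are also rich in them. Several subunits exist as isoforms that differ between tissues, among them the heart and muscle forms COX6A2 and COX7A1. Subunits encoded by mitochondrial DNA were not among the probesets with a single symbol, so every value below is of a nuclear gene.

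All values are log2 signals as deposited, which ran between 2.61 and 14.74, and array medians lay between 3.95 and 4.11. Arrays of 1 organ correlated at 0.889 or higher, with skeletal muscle the least alike and lung the most alike at 0.995. Most markers of each organ were high in that organ, except that GFAP read only 4.98 on average in brain and the B cell marker CD79A 4.63 in spleen. Some arrays also carried another organ's markers. The 5 pancreatic enzyme genes averaged 6.7, 3.8, 7.3 and 9.4 on skeletal muscle arrays 1 to 4, against 13.4 to 13.5 in pancreas. The 5 skeletal muscle markers, 4 fast-fibre genes and the actin ACTA1, which was as high in heart, averaged 6.7, 4.6, 8.0 and 4.5 on brain arrays 1 to 4, against 13.03 to 13.52 in skeletal muscle. Albumin (ALB) reached 7.9 and 10.8 on heart arrays 1 and 2 and 11.04 and 11.09 on lung arrays 1 and 3. It also read 7.58 on kidney array 2, at most 7.33 in spleen and 6.03 to 7.02 in pancreas, and brain array 3 carried the pancreatic enzyme PNLIP at 7.57. The 4 white fat markers averaged 5.93 to 9.04 on lymph node arrays and 5.53 to 8.26 on skeletal muscle arrays. Among them ADIPOQ read 10.19 on lymph node array 4 and 9.47 on skeletal muscle array 1. The fast-fibre gene TNNI2 read 6.75 and 7.46 on lung arrays 1 and 3. Counts of called genes in skeletal muscle, brain, heart and lung are given with and without the arrays named first, and the part of these signals in the results was not tested beyond that. Counts and medians are also given, where they moved by over 1.5 times or changed sign, after scaling arrays on 15 housekeeping genes. This was done on the median of their levels, which follows whichever gene lies in the middle of the list, and on the median after centring each gene.

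Nearly all of the genes differed between organs. By limma's F test over the 10 organs, 71 of 74 passed an adjusted p of 0.001 (Benjamini-Hochberg over all probesets, the threshold for a call throughout), where 60.9% of all genes did. The 3 that did not were NDUFS1, the largest subunit of complex I (adjusted p = 0.00322), NDUFAF4, a complex I assembly factor (0.00965), and COX7A2L, which takes part in joining complexes into supercomplexes (0.34). Heart had the highest mean for 58 of the 74 genes and skeletal muscle for 11. Heart and skeletal muscle were the top pair for 57 genes, and heart and kidney for 6. At the other end pancreas had the lowest mean for 37 genes, lung for 19 and spleen for 8, on the deposited scale.

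**Figure D1:**
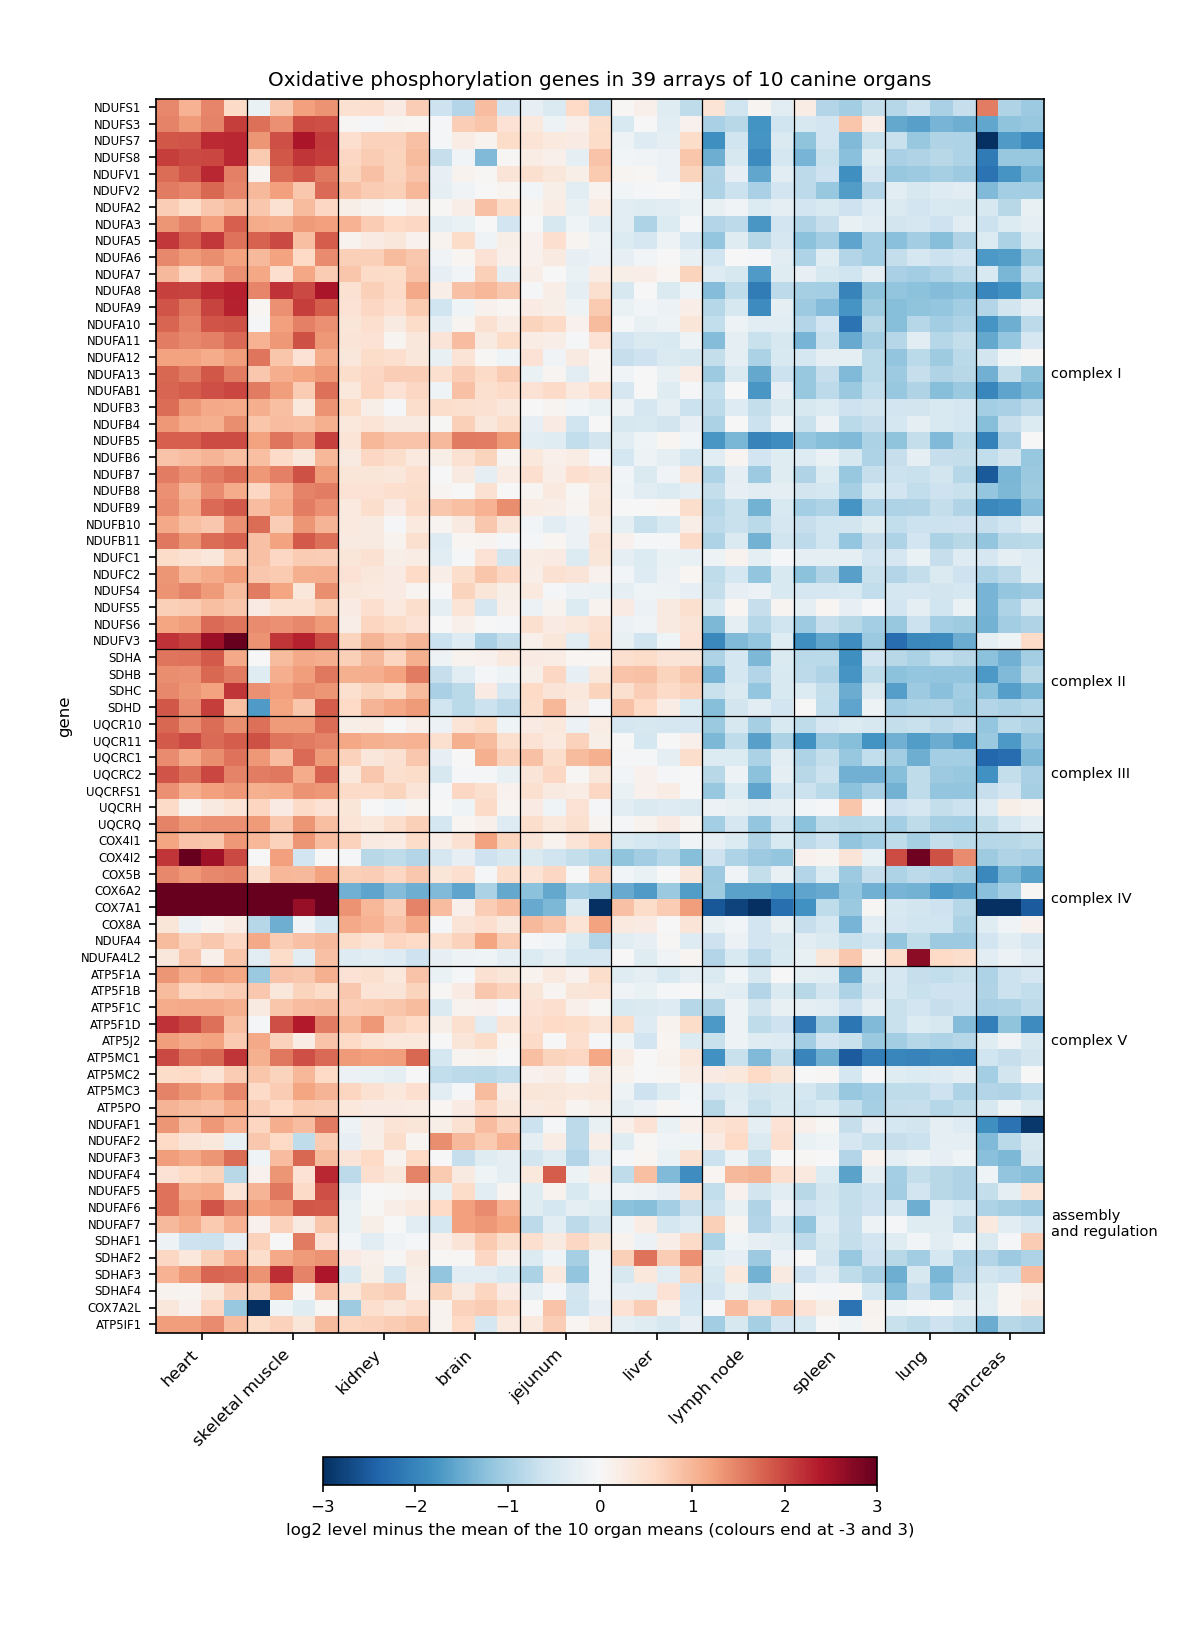
Log2 signal of each of the 74 genes (down, grouped by complex) on each of the 39 arrays (across, by organ), after subtracting the gene's mean over the organs. Heart and skeletal muscle columns are the warmest, while lymph node, spleen, lung and pancreas are the coolest, and COX6A2 and COX7A1 have the widest spread.

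The median over the 74 genes on each array, with each gene centred on its mean over the organs, put the organs in order. It was 1.40, 1.25, 1.37 and 1.38 on heart arrays 1 to 4, and 0.87, 1.09, 1.17 and 1.30 on those of skeletal muscle. Kidney came next with 0.39, 0.50, 0.40 and 0.55. The lowest organs were pancreas with -1.02, -0.90 and -0.78, lung with -0.82, -0.70, -0.77 and -0.82, and spleen with -0.76, -0.56, -1.06 and -0.67. Heart and skeletal muscle overlapped on this scale by 1 array each, and both lay above every kidney array. Brain (0.21 ± 0.20, SD, n = 4), jejunum (0.14 ± 0.13) and liver (-0.12 ± 0.08) lay in between and overlapped with each other, and 1 brain array lay among those of kidney. Lymph node (-0.60 ± 0.27), spleen, lung and pancreas (-0.90 ± 0.12, n = 3) overlapped with each other. These are bulk organs, in which fewer cells of a mitochondria-rich type and less RNA per cell cannot be told apart.

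**Figure D2:**
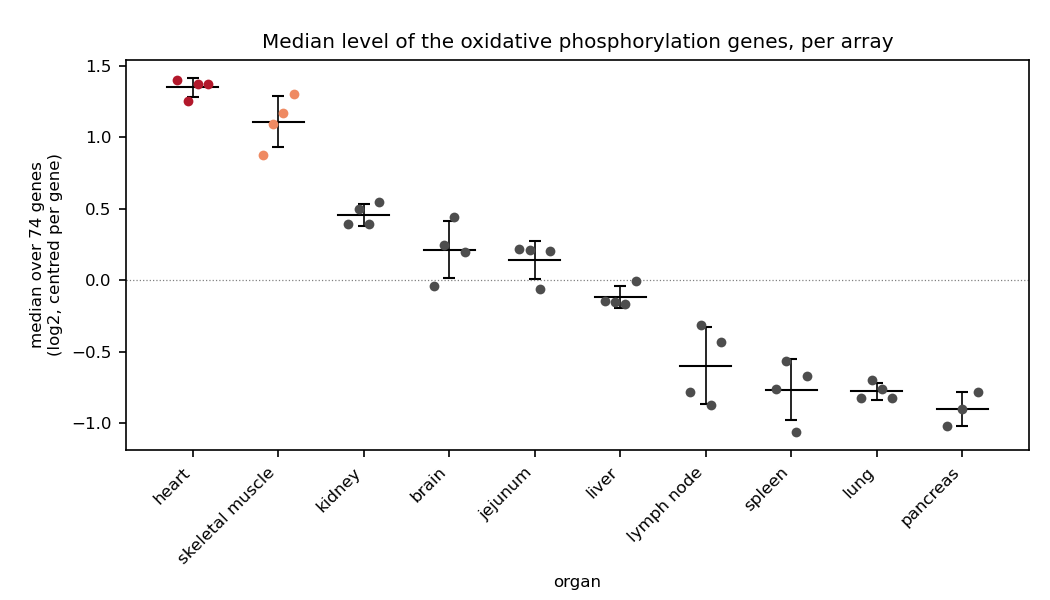
Median over the 74 genes of the centred log2 signal (vertical axis) on each array (points), by organ (horizontal axis), with the mean and SD as bars. Heart arrays lie between 1.25 and 1.40 and skeletal muscle arrays between 0.87 and 1.30, all above the 4 kidney arrays, while pancreas, lung, spleen and lymph node arrays all lie below 0.

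In heart 64 of the 74 genes were called higher than the mean of the other organs and 0 lower, against 8.24% higher and 8.38% lower among all genes. In skeletal muscle 61 were called higher and 1 lower, against 7.77% and 10.1%. The median difference over the 74 genes was 1.50 on the log2 scale in heart and 1.17 in skeletal muscle, while the median over all genes lay between -0.08 and -0.02 in every organ. Without skeletal muscle arrays 1, 3 and 4, those with pancreatic enzyme signal, the median was 1.21. A single muscle array was then left, whose spread was assumed to be that of the other organs, and 23 genes were called higher. Among the genes named below the muscle calls of ATP5F1B, COX4I1, NDUFA4, ATP5MC2 and ATP5MC3 were then lost, with differences of 0.41 to 0.88. Without heart arrays 1 and 2, 57 genes were called higher in heart, with a median of 1.46, and the heart calls of ATP5MC2 (0.65), NDUFC1 (0.62) and SDHD (1.67) were lost.

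Every array of both striated organs lay above every other array for 22 of the 74 genes, against 1.32% of all genes. Of these, 13 encode complex I subunits, 5 complex III, 2 complex IV and 1 complex II, and 1 is the assembly factor SDHAF3, while 0 of the 9 complex V genes were of this kind. For 10 genes every heart array lay above all others, skeletal muscle included (0.966% of all genes). They were 5 complex I genes (NDUFA10, NDUFA13, NDUFAB1, NDUFB4 and NDUFS5), the complex II flavoprotein SDHA, COX5B of complex IV, and ATP5F1A, ATP5F1C and ATP5PO of the ATP synthase. Some margins were next to nil. The lowest heart and highest skeletal muscle array read 11.121 and 11.12 for NDUFS5, 10.593 and 10.591 for NDUFA10, and 11.241 and 11.236 for NDUFB4. None of the 10 was called in heart against skeletal muscle. Because the organs of reference include the other striated organ, the heart and the skeletal muscle contrast each hold the difference between 1 striated organ and a mean that the other raises. For every other organ the mean of reference holds both striated organs, which raise it for genes high in them.

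The complexes moved to different degrees. In heart the median difference was 1.69 for complex I, with 32 of 33 genes called higher, 1.71 for complex II (4 of 4), 1.55 for complex III (6 of 7), 1.37 for complex IV (6 of 8), 1.24 for complex V (9 of 9) and 1.09 for the assembly and regulatory factors (7 of 13). In skeletal muscle the same medians were 1.31, with 31 of 33 called higher, 0.94 (3 of 4), 1.45 (6 of 7), 1.04 (5 of 8), 0.83 (8 of 9) and 0.96 (8 of 13). The 6 core subunits of complex I, which carry out the redox chemistry, had medians of 1.90 in heart and 1.68 in skeletal muscle, with 5 of 6 called in each. Differences between complexes were not tested.

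**Figure D3:**
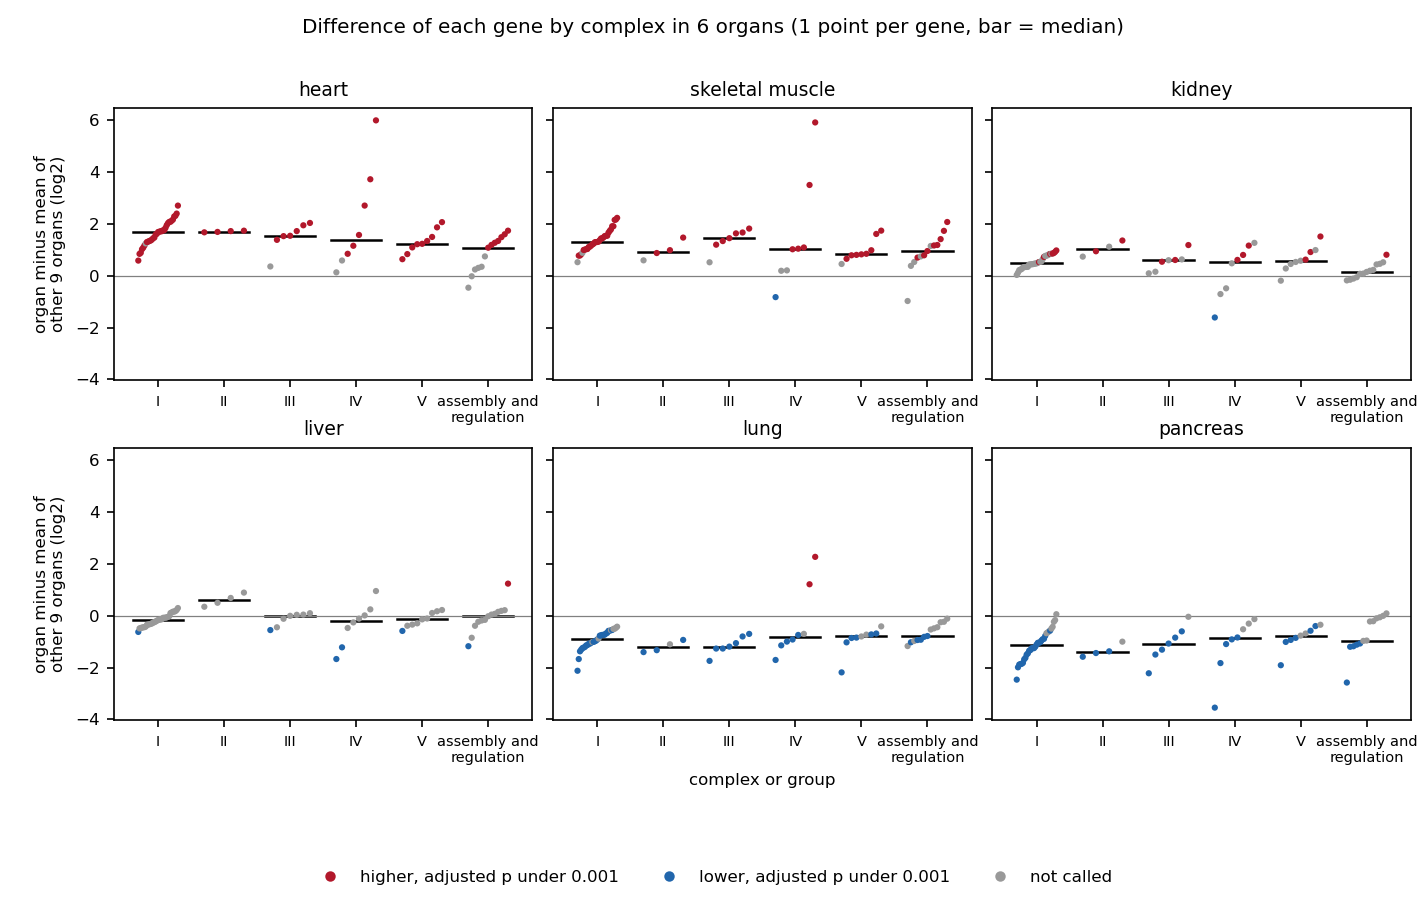
Log2 difference of each organ from the mean of the other 9 (vertical axis) for every gene (points, coloured by call, with the median as a line), grouped by complex (horizontal axis), in heart, skeletal muscle, kidney, liver, lung and pancreas. Nearly all points lie above 0 in heart and skeletal muscle, with medians of 1.69 and 1.31 for complex I, and most lie below 0 in lung and in pancreas, whose median turned sign under 1 of the 2 housekeeping scalings.

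Within complex I the widest range belonged to NDUFV3, a small accessory subunit of the NADH-binding part, whose organ means spanned 20.4-fold. It read 10.51, 10.36, 10.90 and 11.32 in heart and 9.69, 10.48, 10.63 and 10.29 in skeletal muscle, against 6.04 to 6.84 on the 4 lung arrays. The heart mean of 10.77 ± 0.43 was 6.55-fold above the mean of the other organs, 8.06 (difference 2.71 ± 0.21, SE, adjusted p = 2.4e-12), and skeletal muscle was 4.46-fold above. Heart and skeletal muscle arrays overlapped with each other and lay apart from all the rest. The core subunit NDUFS7 was 4.90-fold higher in heart (adjusted p = 2.14e-10), and the accessory subunit NDUFA8 5.29-fold (4.22e-12). NDUFC1, an accessory subunit of the membrane arm, had the narrowest range in complex I, 2.30-fold between its highest and lowest organ. It was 1.50-fold higher in heart (difference 0.59 ± 0.12, adjusted p = 1.86e-04), a call that was lost without heart array 1 or 4.

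NDUFS1 was the 1 complex I gene not called in heart, with 10.55, 10.14, 10.57 and 9.67 in heart and a difference of 1.25 (adjusted p = 0.00328). Its values were uneven in other organs too, with 10.64 on pancreas array 1 against 8.21 and 8.02 on the remaining pancreas arrays. The other 3 probesets of NDUFS1 were each called higher in heart, by 2.81, 2.82 and 3.25 on the log2 scale, so this call depends on the probeset taken.

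The 4 genes of complex II, which also serves the tricarboxylic acid cycle, were all called higher in heart by 3.20- to 3.35-fold. SDHB, the iron-sulfur subunit, read 11.36, 11.34, 11.68 and 11.53 in heart, 11.03, 11.05, 11.17 and 11.54 in kidney and 10.83, 10.84, 10.64 and 10.79 in liver. On the skeletal muscle arrays it read 9.61, 11.06, 11.22 and 11.55, with array 1 low. Kidney, at 11.19 ± 0.24, was 2.57-fold above the mean of the other organs, 9.83 (adjusted p = 4.32e-06), and its arrays overlapped those of heart. SDHA was called higher in kidney too, by 1.93-fold (3.4e-05). In liver SDHB was 0.90 above the other organs on the log2 scale, which missed the threshold (adjusted p = 0.00117). SDHD, a membrane anchor, differed by 1.74 ± 0.33 in heart (8.34e-05), which was lost without heart array 1 or 3, and its skeletal muscle arrays read 6.75, 9.62, 9.28 and 10.27.

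In complex III, UQCR11, a small subunit of the complex, had the widest range, 10.6-fold. It read 12.01, 12.14, 11.87 and 11.98 in heart and 12.07, 11.78, 11.73 and 11.64 in skeletal muscle, against 11.32, 11.23, 11.17 and 11.21 in kidney. The heart mean was 4.12-fold above the mean of the other organs (2.04 ± 0.14, adjusted p = 8.82e-14), with no array of a non-striated organ reaching either striated organ. The core protein UQCRC1 was 2.92-fold higher in heart, and was 1 of the 3 genes called higher in jejunum, by 1.92-fold (8.22e-05). That call was lost without jejunum array 4 (adjusted p = 0.00151), without pancreas (0.00141) and under the scaling on uncentred housekeeping levels (0.38, adjusted p = 0.253). UQCRH, the hinge protein, had the narrowest range of the complex, 2.14-fold, and was not called in heart (0.36, adjusted p = 0.0259) or in skeletal muscle (0.52, 0.00119). With the mean of all its probesets UQCRH was called in heart.

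Complex IV held the genes with the strongest organ pattern. COX6A2, the heart and muscle form of subunit VIa, read 12.05, 11.56, 12.02 and 11.57 in heart and 12.05, 11.61, 11.64 and 11.62 in skeletal muscle. In pancreas it read 5.14, 5.37 and 6.43, the last of these being the highest of the 31 remaining arrays. Heart was 64.1-fold above the mean of the other organs (11.80 ± 0.27 against 5.80, adjusted p = 2.18e-25) and skeletal muscle 60.6-fold (11.73 ± 0.21 against 5.81, 3.2e-25). The measured organ means spanned 122-fold, and heart and skeletal muscle overlapped. Levels under 6, which COX6A2 had in most other arrays, were not shown to lie above background, so these folds are lower bounds at best. The same holds for the low organs of COX4I2. For NDUFA4L2 every organ mean lay under 6, the highest being 5.69 in lung, so none was shown to lie above background.

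COX7A1, the heart and muscle form of subunit VIIa, was graded across organs rather than confined to muscle. It read 12.44, 11.98, 12.16 and 11.82 in heart and 12.16, 11.83, 11.35 and 12.25 in skeletal muscle. Kidney followed with 10.09, 9.75, 9.49 and 10.24, liver with 9.62, 9.29, 9.51 and 10.00 and brain with 9.66, 8.89, 9.49 and 9.66, and these 3 organs overlapped. The lowest were lymph node with 6.20, 5.96, 4.97 and 6.49 and pancreas with 4.77, 5.65 and 6.24. COX7A1 was 13.2-fold higher in heart (3.73 ± 0.30, adjusted p = 1.15e-11) and 11.4-fold higher in skeletal muscle (5.49e-11). It was 3.16 lower in lymph node on the log2 scale, and in kidney its difference of 1.27 missed the threshold (0.00167).

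Subunit IV has a general form, COX4I1, and a second form, COX4I2, which is best known from lung. COX4I1 was 2.24-fold higher in heart (adjusted p = 1.54e-08) and 2.14-fold higher in skeletal muscle. COX4I2 read 7.17, 8.11, 7.57 and 6.99 in heart, 6.97, 7.95, 6.92 and 6.43 in lung and 5.04, 6.25, 4.45 and 5.03 in skeletal muscle. Heart was 6.55-fold above the mean of the other organs (7.46 ± 0.50 against 4.75, adjusted p = 3.15e-12) and lung 4.85-fold (7.07 ± 0.64 against 4.79, 2.98e-10). Heart and lung overlapped, and all of their arrays lay above every skeletal muscle array. COX4I2 is 1 of 2 genes in the whole set that were called higher in lung.

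The other was NDUFA4L2, a paralog of NDUFA4, which is counted here with complex IV. NDUFA4L2 read 5.16, 7.28, 5.19 and 5.13 in lung and was called 2.33-fold higher there (1.22 ± 0.23, adjusted p = 1.13e-04), but array 2 stood far above the rest, and without it the difference was 0.69 and was not called (0.00385). NDUFA4 was 1.80-fold higher in heart and 2.07-fold higher in skeletal muscle. COX5B, a nuclear subunit present in every tissue, was 2.99-fold higher in heart (12.59 ± 0.08, adjusted p = 4.51e-11).

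COX8A, the general form of subunit VIII, ran against the other genes. It read 8.91, 8.31, 9.68 and 9.24 in skeletal muscle and 10.13, 9.60, 9.86 and 9.98 in heart, against 10.92, 10.82, 10.63 and 10.92 in kidney and 10.74, 10.60, 10.17 and 10.98 in jejunum. It was the 1 gene called lower in skeletal muscle, where it was 1.77-fold below the mean of the other organs (9.03 against 9.85, -0.82 ± 0.16, adjusted p = 1.41e-04). The call was lost without muscle array 1 (0.00144) or 2 (0.00606), and under both housekeeping scalings (-0.44, adjusted p = 0.237, on uncentred levels and -0.52, 0.00509, on centred ones). In heart it was not called (0.13), while it was called higher in kidney (1.17) and jejunum (0.95). The jejunum call was lost without jejunum array 4 (adjusted p = 0.00101) and under the scaling on uncentred levels (0.38, 0.219). Of its 3 other probesets, 2 were called lower in skeletal muscle as well. No single-symbol probeset held a muscle form of subunit VIII, so the pair could not be set side by side, and the same was true of the partners of COX6A2 and COX7A1.

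**Figure D4:**
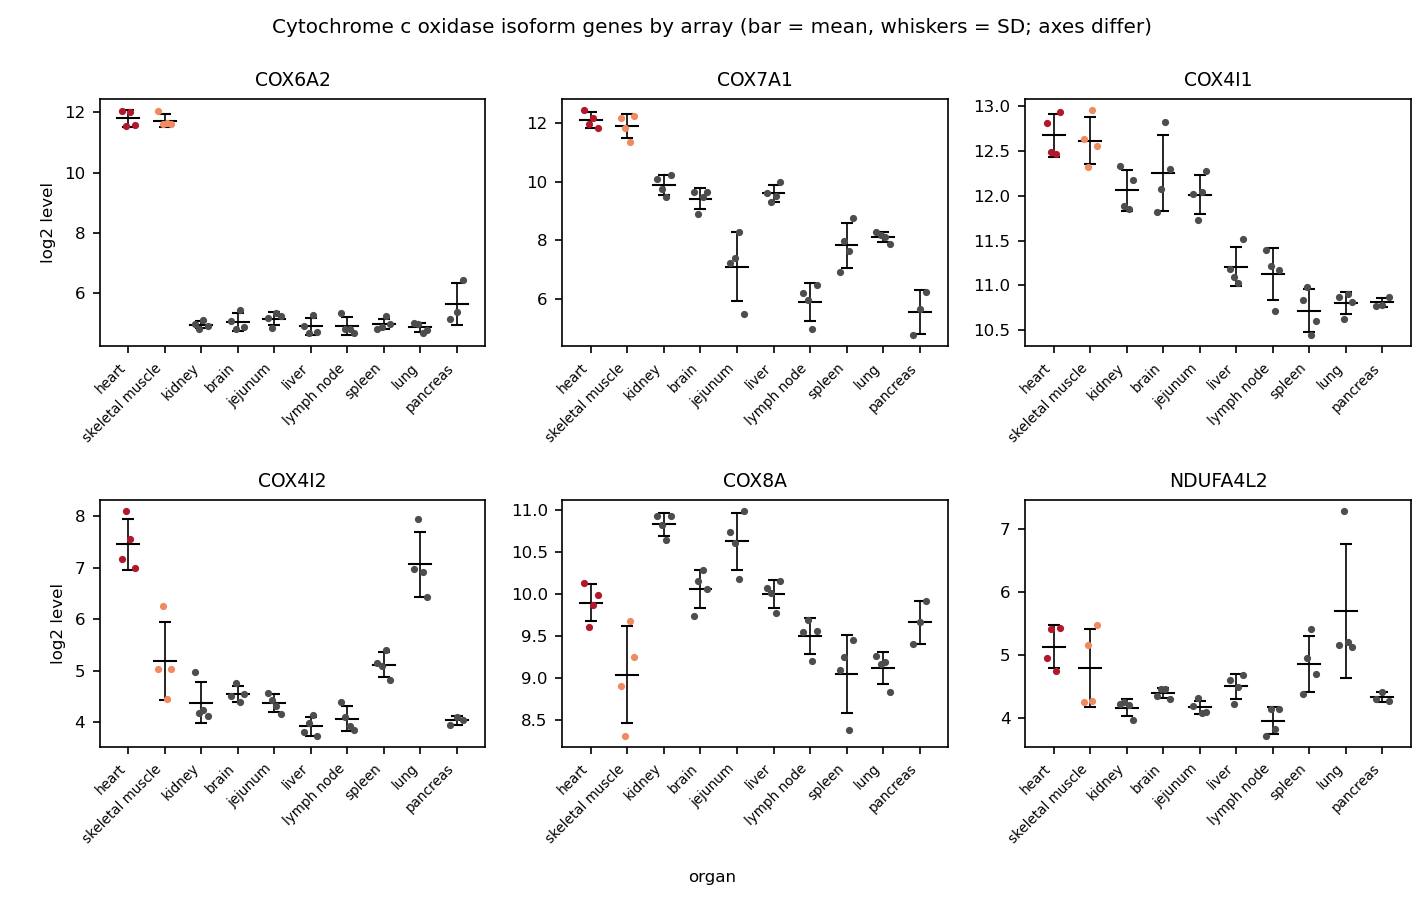
Log2 signal (vertical axis) of COX6A2, COX7A1, COX4I1, COX4I2, COX8A and NDUFA4L2 on each array (points), by organ (horizontal axis), with the mean and SD as bars. COX6A2 is high in heart and skeletal muscle and near 5 in most other arrays, COX7A1 is intermediate in kidney, liver and brain, COX4I2 is high in heart and lung, and COX8A is lowest in skeletal muscle at 9.03 on average.

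All 9 genes of complex V were called higher in heart and 8 of them in skeletal muscle. ATP5MC1, 1 of 3 genes that encode the same mature c subunit of the rotor ring, had the widest range, 14.6-fold. It read 12.83, 12.48, 12.57 and 12.99 in heart, 11.91, 12.44, 12.79 and 12.55 in skeletal muscle and 12.12, 12.08, 12.11 and 12.57 in kidney, and 8.89, 8.85, 8.92 and 8.90 in lung. Heart was 4.21-fold above the mean of the other organs (12.72 ± 0.23 against 10.65, 2.07 ± 0.16, adjusted p = 2.38e-12), skeletal muscle 3.35-fold, and kidney was higher by 1.52 on the log2 scale. These 3 organs overlapped. ATP5MC1 was 4.69-fold lower in spleen and lower by 2.18 on the log2 scale in lung.

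The other c-subunit genes moved less. ATP5MC2 read 10.98, 11.02, 10.85 and 11.19 in heart and 11.26, 11.09, 11.42 and 11.02 in skeletal muscle, against 9.70, 9.64, 9.62 and 9.68 in brain. It was 1.56-fold higher in heart (0.64 ± 0.10, adjusted p = 9.08e-06) and was called lower in brain (-0.86). ATP5MC3 was 2.83-fold higher in heart. The catalytic subunit ATP5F1B had the narrowest range of complex V, 2.87-fold, and was 1.79-fold higher in heart and 1.58-fold in skeletal muscle. ATP5F1D, a subunit of the central stalk, was lower by 1.88 in spleen and higher by 1.87 in heart.

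The balance of c-subunit genes was compared within each array, as the log2 difference between 2 genes, for 8 striated arrays against the other 31. The 3 pairs of c-subunit genes were among 5 pairs tested by exact two-sided permutation over arrays, with p-values adjusted over the 5. The permutation treats arrays as independent, but arrays of 1 organ are alike and the organs share dogs. Its p-values therefore overstate the evidence and cannot decide whether striated organs differ from other organs. Labels of whole organs were not permuted, so a striated difference at the level of organs was not tested. ATP5MC1 minus ATP5MC2 averaged 1.47 ± 0.38 in the striated arrays and 0.15 ± 1.25 in the others, a shift of 1.31 or 2.48-fold (exact p = 0.00578, adjusted p = 0.0289). ATP5MC1 minus ATP5MC3 averaged 0.02 ± 0.17 in the striated arrays and -0.74 ± 0.80 in the others (shift 0.76, exact p = 0.0119, adjusted p = 0.0298). Both comparisons overlapped, and kidney had the highest ATP5MC1 minus ATP5MC2 of all organs, 1.96 ± 0.13, above heart at 1.71 ± 0.17 and skeletal muscle at 1.23 ± 0.39. Spleen (-1.45 ± 0.25), lung (-1.18 ± 0.05) and lymph node (-1.09 ± 0.56) were at the low end. Without heart array 4 both pairs missed 0.05 (adjusted p = 0.0502 each), as did ATP5MC1 minus ATP5MC3 without skeletal muscle array 2 (0.0503) or 3 (0.0534). Without skeletal muscle arrays 1, 3 and 4 the shifts were 1.48 and 0.74, with adjusted p = 0.0527 and 0.0611.

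The other 3 pairs did not pass an adjusted p of 0.05. ATP5MC2 minus ATP5MC3 was lower by 0.55 in the striated arrays (exact p = 0.0342, adjusted p = 0.057) and passed when any of 8 single arrays was left out, NDUFA4L2 minus NDUFA4 was -6.64 against -6.03 (exact p = 0.117, adjusted p = 0.146), and COX4I2 minus COX4I1 was -6.32 against -6.68 (exact p = 0.518). For the last pair the 2 striated organs lay on opposite sides, with COX4I2 high in heart and not in skeletal muscle.

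**Figure D5:**
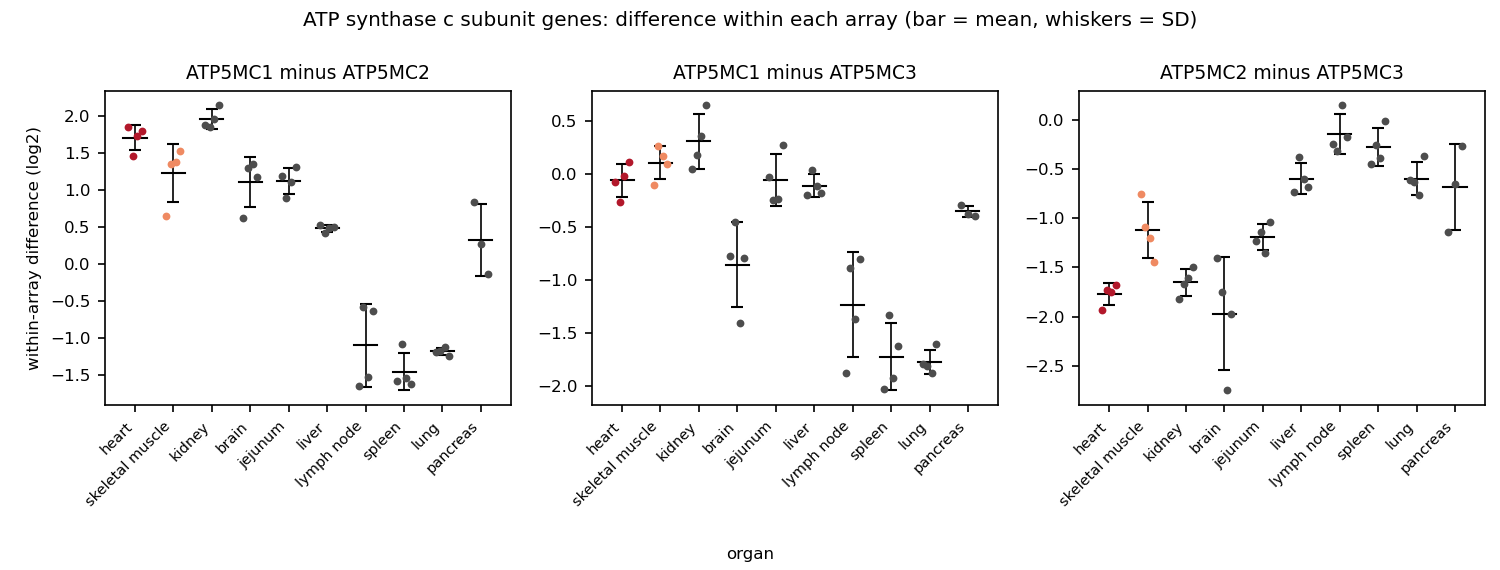
Log2 difference between 2 c-subunit genes on each array (vertical axis; ATP5MC1 minus ATP5MC2, ATP5MC1 minus ATP5MC3 and ATP5MC2 minus ATP5MC3), by organ (horizontal axis), with the mean and SD as bars. Kidney (1.96) and heart (1.71) have the highest mean of ATP5MC1 minus ATP5MC2, and spleen (-1.45), lung and lymph node the lowest.

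Among the assembly and regulatory factors the pattern was looser. NDUFAF6 was 3.35-fold higher in heart and was also called higher in skeletal muscle (1.74) and brain (2.28-fold, adjusted p = 8.86e-08), and was lower by 1.17 in liver. SDHAF3, which helps complete the iron-sulfur subunit of complex II, was 4.22-fold higher in skeletal muscle. SDHAF2, which is needed to attach the flavin to SDHA, was the 1 gene called higher in liver, with 8.31, 9.22, 8.36 and 8.97 there (8.72 against 7.47, 1.24 ± 0.18, adjusted p = 1.15e-06), and its liver arrays overlapped those of skeletal muscle. ATP5IF1, which restrains the ATP synthase from running in reverse, was 2.54-fold higher in heart (1.45e-09) and was called higher in kidney (0.81). COX7A2L read 4.92, 7.79, 7.56 and 7.96 in skeletal muscle and 8.27, 8.05, 8.55 and 6.78 in heart, with no call in heart or skeletal muscle.

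With heart set against skeletal muscle, 61 of the 74 genes were higher in heart and 13 lower by sign, with a median difference of 0.24. Of these 1 was called higher and 0 lower, against 2.61% and 1.5% of all genes, which is near the background. The called gene was COX4I2, at 7.46 in heart and 5.19 in skeletal muscle (2.27 ± 0.28, 4.81-fold, adjusted p = 2.59e-07). Without skeletal muscle arrays 1, 3 and 4 the difference was 1.21 and was not called (0.0563), with the spread of the 1 muscle array left taken from the other organs. SDHAF1, a complex II assembly factor, was 1.09 lower in heart, which missed the threshold (0.00136). By complex the median differences were 0.69 for complex II, 0.30 for complex V, 0.28 for complex I, 0.27 for complex IV, 0.08 for complex III and -0.07 for the assembly and regulatory factors.

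Kidney had 19 genes called higher and 1 lower, against 8.92% and 4.78% of all genes, with a median of 0.50. The 1 lower was COX6A2 (-1.61), at 4.82 to 5.10 on the kidney arrays, with both striated organs in the mean of reference. COX6A2 was likewise among the genes called lower in brain (-1.50), jejunum (-1.38) and liver (-1.67). By complex, 7 of 33 complex I genes, 2 of 4 complex II, 3 of 7 complex III, 3 of 8 complex IV and 3 of 9 complex V genes were called higher, and complex II had the largest median, 1.04. Under the uncentred housekeeping scaling 3 of the 74 genes were called higher in kidney, a share no larger than the 5.85% of all genes, with a median of 0.57. Under the centred scaling 15 were called higher, against 7.48% of all genes, with a median of 0.40. In brain 14 were called higher and 2 lower, against 12.3% and 9.77%, with a median of 0.185. Under the uncentred housekeeping scaling the brain median became -0.29, with 0 genes called higher, against 4.81% of all genes. Under the centred one it became 0.31, with 16 called higher, against 13.7%. Without brain array 3 there were 7 genes called higher and without array 4 there were 8. NDUFB5, an accessory subunit of complex I, read 10.23, 10.81, 10.77 and 10.53 in brain. It read 11.05, 11.05, 11.20 and 11.20 in heart and 7.50, 7.88, 7.24 and 7.38 in lymph node. NDUFB5 was called higher in brain (1.49 ± 0.18, adjusted p = 4.73e-08). That call was lost under the uncentred scaling (1.01, adjusted p = 0.00348) and with the mean of its 2 probesets (0.575, adjusted p = 0.00322). Without brain arrays 1 and 3, which carried skeletal muscle markers, 6 genes were called higher in brain. In jejunum 3 were called higher and 2 lower, against 8.15% and 4.18%, and in liver 1 higher and 6 lower, against 7.81% and 7.09%. The share of genes called in jejunum and liver was near or below that of all genes.

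Lymph node, spleen, lung and pancreas were at the low end. In lymph node 0 genes were called higher and 39 lower (12.4% and 8.2% of all genes), with a median of -0.68. The count was 24 without array 3, and 60 and 66 under the uncentred and centred housekeeping scalings, with medians of -1.44 and -1.16. Under these scalings 17.2% (uncentred) and 52.1% (centred) of all genes were called lower in lymph node. In spleen 0 were called higher and 46 lower (6.94% and 5.76%), with a median of -0.78, or -1.45 and -1.13 under the scalings. In lung 2 were called higher and 52 lower (8.59% and 5.06%), with a median of -0.89. Complex III had 7 of 7 genes called lower in lung and complex I had 26 of 33. NDUFB5 was 3.84-fold lower in lymph node. UQCRH was the 1 gene with every lung array below all other arrays, against 0.0926% of all genes. Without lung arrays 1 and 3, those with albumin signal, 24 genes were called lower in lung, with a median of -0.84.

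In pancreas 0 genes were called higher and 50 lower (11.9% and 14.3% of all genes), with a median of -1.0 that became -0.67 under the centred housekeeping scaling and turned to 0.87 under the uncentred one. With centring 35 genes were called lower, against 8.32% of all genes, and 0 of the 50 turned sign. The median over all genes was then 0.29. Without centring the gene in the middle of the housekeeping list was PGK1, YWHAZ or HPRT1, of which PGK1 and YWHAZ were themselves called lower in pancreas (-3.96 and -2.36). That scaling raised every gene of pancreas by 1.72 on average and the median over all genes to 1.82, while the median difference of the 15 housekeeping genes in pancreas was -0.19. For 5 genes (NDUFA6, NDUFB8, NDUFS4, COX5B and NDUFAF1) every pancreas array lay below all others, against 2.67% of all genes. NDUFAF1, a complex I assembly factor, read 5.31, 4.93 and 4.26 in pancreas, and its difference of -2.58 was -2.24 under the centred scaling and -0.71 under the uncentred one, where it was not called (adjusted p = 0.037).

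Other mitochondrial genes were looked at through lists chosen by role. Among all genes 8.24% were called higher and 8.38% lower in heart, and 7.77% higher and 10.1% lower in skeletal muscle. Of 12 genes of other respiratory chain parts, electron carriers and ubiquinone synthesis, 11 were called higher in heart and 11 in skeletal muscle. The medians were 1.67 and 1.31. Among them COQ8A (8.33-fold) and COQ9 (7.27-fold), both of ubiquinone synthesis, differed most in heart. Of 15 genes of the tricarboxylic acid cycle and pyruvate dehydrogenase 13 were called higher in heart and 11 in skeletal muscle (medians 1.88 and 1.42), led in heart by DLAT of pyruvate dehydrogenase (11.3-fold) and IDH3B of the cycle (8.44-fold), while SUCLG2 was not called (-0.30). Of 22 further assembly factors 10 were called higher in heart and 9 in skeletal muscle, with the complex III factors UQCC1 (8.09-fold) and BCS1L (5.63-fold) first in heart and FOXRED1 not called (-0.34).

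Of 16 regulators of mitochondrial biogenesis 2 were called higher in heart and 2 in skeletal muscle, with medians of 0.06 and 0.17. These counts were near the shares of all genes, 8.24% and 7.77%. PPARGC1A, a coactivator of mitochondrial gene expression, was 10.9-fold higher in heart (8.64 ± 0.28 against 5.19, adjusted p = 5.99e-08) and PPARA 3.33-fold, while TFAM, which packages mitochondrial DNA, was not called (-0.24). Of 10 genes of the outer membrane and protein import 5 were called higher in each striated organ, with SAMM50 (3.78-fold) and TIMM50 (2.64-fold) first in heart and TOMM70 not called (-0.24). Of 9 genes of ATP export and proton leak 4 were called higher and 1 lower in heart, and 4 higher and 2 lower in skeletal muscle. The muscle mitochondrial creatine kinase CKMT2 was 136-fold higher in heart, UCP3 8.04-fold, and SLC25A6, an ATP/ADP exchanger, was lower by 1.47.

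Across the 39 arrays, which share dogs and normalisation, the genes outside the set whose pattern was most like the mean of the 74 were SLC25A11 (Pearson r = 0.954), CYC1 and PDHA1 (0.952 each), COQ9 (0.942) and ECSIT (0.94). CYC1 encodes cytochrome c1 of complex III, which the symbol rule left out. Within the set the genes least like the mean of the others were COX7A2L (-0.07), NDUFA4L2 (0.06), COX8A (0.27) and COX4I2 (0.28). Of the 72 probesets that did not represent their gene, 54 had a mean of 6 or more in some organ, and 43 of those were called higher in heart and 0 lower. Among the 18 dimmer ones 2 were called higher.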

How the data were processed

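The values used are log2 signals, deposited by the authors for 39 Affymetrix Canine Version 2.0 arrays. Per the study's methods and the submitters' processing notes, the authors adjusted probe intensities for GC content and probe sequence in Partek, then applied RMA background correction, quantile normalisation over all arrays and median polish. Quantile normalisation gives every array the same distribution, so a difference is relative to the other genes of its organ, and log2 signals of different probesets are not comparable as amounts. Precision is limited by the number of arrays per organ (3 or 4).

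Genes were named from the platform's probe annotation. Of 42860 probesets, 29254 had 1 symbol, 439 several and 13167 none, and 5 probesets with several symbols that matched were left out. Organ means were fitted with limma 3.58.1 in R 4.3.3 without covariates. Scan date, a random factor in the study's own model, was not in the labels used here. The fit gave an F test over organs, each organ against the unweighted mean of the other 9, and heart against skeletal muscle, with Benjamini-Hochberg adjustment over all 42860 probesets per comparison and calls at 0.001. Isoform pairs were compared by exact permutation over arrays, which makes no allowance for the likeness of arrays within an organ. The fit was tested on simulated data. Percentages of all genes are over 15115 genes, 1 probeset each.

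The genes, lists and tests were chosen with earlier results of these data known. Named genes were the isoform pairs, the called genes with the largest and smallest differences in each comparison, the genes with the widest and narrowest range in each complex, and, from each other list, the 2 largest and the smallest difference in heart. NDUFS1, NDUFS7, NDUFA8, SDHA, COX5B, COX7A2L, NDUFAF4, SDHAF1, SDHAF3, ATP5MC3, ATP5IF1, ECSIT and the genes listed for arrays above or below all others were named after their values were seen, as was the grouping by complex. Alternatives were a block on replicate number, scaling on the median level of 15 housekeeping genes, removal of dim probesets, the mean of a gene's probesets, leaving out pancreas, and leaving out each array in turn. After the data were seen, leaving out arrays with another organ's markers was added, as was the same scaling with each housekeeping gene centred on the mean of its organ means.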

Additional observations from a re-analysis of the deposited data

Results flagged for a closer look

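An array that stood apart from the others of its organ by Dixon's criterion was found in 20 of 279 groups examined (7.17%), where chance gives about 1 in 20. For the median over the 74 genes these were heart array 2 at 1.25 (nearest 1.37), jejunum array 3 at -0.06 (nearest 0.20) and liver array 4 at -0.01 (nearest -0.15).

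Lung array 2 stood apart for NDUFA4L2 at 7.28 (nearest 5.19), for NDUFA4L2 minus NDUFA4 at -2.71 (nearest -4.42), for NDUFAF6 at 5.47 (nearest 6.41) and for UQCRC1 at 9.51 (nearest 9.95). Spleen array 3 stood apart for SDHB at 8.2 (nearest 9.07), ATP5MC2 at 9.90 (nearest 10.39) and UQCRH at 13.05 (nearest 12.20), low for the first pair and high for UQCRH. In the same organ ATP5MC1 minus ATP5MC2 was -1.08 on array 2 (nearest -1.53) and NDUFC1 was 9.89 on array 4 (nearest 10.20). Lymph node array 3 was low for NDUFAF1 at 6.86 (nearest 7.56) and UQCRC1 at 10.03 (nearest 10.57).

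In kidney, array 4 was high for ATP5MC1 at 12.57 (nearest 12.12) and low for NDUFA4L2 at 3.97 (nearest 4.21), and array 1 was high for COX4I2 at 4.97 (nearest 4.25). The remaining ones were ATP5F1B at 12.20 on jejunum array 2 (nearest 12.48), ATP5MC1 at 10.32 on brain array 1 (nearest 10.86) and COX6A2 at 12.05 on skeletal muscle array 1 (nearest 11.64).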

How the results depend on the processing

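The medians of brain, jejunum, liver and pancreas changed sign when arrays were scaled on the uncentred median of housekeeping genes, and COX4I2 minus COX4I1, not called anywhere, changed sign with the mean of probesets (-0.39), with skeletal muscle alone (-0.74) and without heart arrays 1 and 2 (-0.07). With centred housekeeping genes the liver median also changed sign. No other median or pair difference changed sign under the alternatives run. Heart (61 to 65 genes called higher with any 1 array left out) and skeletal muscle (55 to 63) moved little with single arrays left out. No labels tie replicate numbers to dogs. Same-numbered arrays had a median correlation of deviations of 0.138 over 171 pairs, and 30 of 39 arrays correlated best with their own number. With replicate number as a block, 2 genes were called higher in liver and 1 lower in heart against skeletal muscle. Scaled on uncentred housekeeping genes, those called higher numbered 0 in brain (4.81% of all genes), 0 in jejunum (3.31%) and 3 in kidney (5.85%). They numbered 1 in lung (3.44%) and 25 of the 74 in pancreas, a smaller share than the 76.7% of all genes. Genes called lower numbered 1 in liver (2.29% of all genes), 60 in lymph node (17.2%), 1 in pancreas (0.331%) and 0 in skeletal muscle (2.43%). The medians were then -0.29 in brain, 1.84 in heart, -0.39 in jejunum, 0.0012 in liver, -1.21 in lung, -1.44 in lymph node, 0.87 in pancreas, 1.55 in skeletal muscle and -1.45 in spleen. Scaled on centred housekeeping genes, a choice made after seeing the data, 4 were called higher and 3 lower in liver (8.94% and 4.74% of all genes). In lymph node 66 were called lower (52.1%) and in skeletal muscle 0 (5.86%). The medians with centring were 1.80 in heart, 0.40 in kidney, 0.0157 in liver, -1.13 in lung, -1.16 in lymph node, -0.67 in pancreas, 1.47 in skeletal muscle and -1.13 in spleen. Without dim probesets 2 genes were called higher in liver, 1 higher in lung and 1 lower in heart against skeletal muscle. With the mean of a gene's probesets 3 were called higher in liver and 1 in spleen, NDUFA4L2 minus NDUFA4 shifted by -1.16 (adjusted p = 0.0199) and ATP5MC2 minus ATP5MC3 by -0.55 (0.0428). NDUFA4L2 has 1 probeset, not shown to lie above background, so only the NDUFA4 side, with 2 probesets, changed. All p-values of pairs in this section treat arrays as independent and cannot decide whether striated organs differ from other organs. Without pancreas 8 were called higher in brain, 4 lower in jejunum, 1 higher in lymph node and 1 lower in heart against skeletal muscle, with medians of 1.37 in heart, 0.39 in kidney, -0.23 in liver and -1.02 in lung.

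With heart alone as the striated organ ATP5MC1 minus ATP5MC3 shifted by 0.68 (adjusted p = 0.139) and ATP5MC2 minus ATP5MC3 by -0.88 (0.0359). With skeletal muscle alone ATP5MC1 minus ATP5MC2 shifted by 1.07 and ATP5MC1 minus ATP5MC3 by 0.84 (0.178). Chosen after seeing the data, leaving out skeletal muscle arrays 1, 3 and 4 gave 2 lower in kidney, 2 higher in liver and 23 higher in skeletal muscle, and pair shifts of 1.48 and 0.74 for ATP5MC1 against ATP5MC2 and ATP5MC3. Leaving out brain arrays 1 and 3 gave 6 higher in brain, 2 higher in liver and -0.64 for ATP5MC2 minus ATP5MC3 (0.0188). Leaving out heart arrays 1 and 2 gave 1.25 and 0.82 for the ATP5MC1 pairs (0.0509), and leaving out lung arrays 1 and 3 gave 24 lower in lung. With each array left out in turn, brain higher ran from 7 (without array 3) to 14, jejunum higher 1 to 3 and lower 1 to 2 (both without array 4), liver higher 1 to 2 and lower 3 (without array 4) to 7, lung higher 1 (without array 2) to 2, lymph node higher 0 to 1 and lower 24 (without array 3) to 42, skeletal muscle lower 0 to 1, and heart against skeletal muscle 1 to 2 higher and 0 to 1 lower. The pair shifts ran from 1.25 to 1.43, 0.72 to 0.81 and -0.65 to -0.48, and the side of 0.05 changed in 1, 3 and 8 of 39 cases, lost for the first and second pair and gained for the last. Over the named genes 2760 of 2803 values stayed on their side of the threshold, 41 lost the call and 2 gained it. The shift under uncentred scaling follows its construction, and the other causes were not tested.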
